A study of Homo sapiens with 6 samples.

Results

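SGK1, the serum- and glucocorticoid-inducible kinase 1, was the gene around which 9 genes were gathered: SGK1 and its relative SGK3, the glucocorticoid receptor NR3C1, the receptor's co-chaperone FKBP5, the leucine zipper genes TSC22D1, TSC22D2 and TSC22D3, the ubiquitin ligase NEDD4L and the transcription factor ZBTB16. The set was chosen on the large rise of SGK1 after sevoflurane (Sev) in these same libraries, so the values of SGK1 are described without a p-value, and the other 8 genes were added as its relatives, as its substrate or as genes of the glucocorticoid response. All 9 were present among the 61496 features of the deposited table, and 8 of them passed the filter on low counts together with 27514 features in all. The remaining gene, ZBTB16, had no count in any library.

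The libraries came from U251, an established human glioma cell line grown in medium with fetal bovine serum. Untreated cells (control) gave 3 libraries and cells kept in the inhalational anesthetic Sev for 2 h gave 3 more (Sev), all made from ribosomal RNA-depleted total RNA with strand-specific adapters. The treatment protocol lists concentrations of 1.7%, 3.4% and lastly 5.1% without assigning any to a library, and the legend to the sequencing data names 5.1%. Neither the growth nor the treatment protocol names a glucocorticoid, and the labels do not say whether the libraries of a group came from separate cultures. The study's methods describe its quantitative data in general as coming from independent experiments but do not say so of the sequencing, so the p-values measure the spread between these libraries, which may be technical.

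Totals lay between 38624292 and 46318311 counts. With each library scaled by TMM, a normalization that sets most genes level between libraries, 6094 features (22.1% of those tested) were higher and 5920 (21.5%) lower in Sev by edgeR's quasi-likelihood test at an adjusted p under 0.05, the limit for a gene termed called here. Scaled by library size alone the split was 4665 higher and 7502 lower, and the median log2 fold change of all features moved by -0.14. Of 11 glial and glioma markers 10 passed the filter, with a summed level of 9190 to 10059 CPM (counts scaled to one common library size) in control and 10533 to 11437 CPM in Sev. VIM made up most of that sum, CD44, TNC and EGFR rose (0.97, 0.43 and 0.27 on the log2 scale), S100B and SOX2 fell (-1.10 and -0.72), and their part in the results was not tested. Of 4 immune markers, CD68 alone passed the filter, at means of 3.01 CPM in control and 4.8 CPM in Sev, PTPRC had 0 to 12 counts, and AIF1 and CD3E were at 0 in every library. The summed neuron markers were at 85.6 to 116 CPM in control and 150 to 164 CPM in Sev with TUBB3 and SYT1 called higher, and the endothelial markers at 38.5 to 41.4 and 49.2 to 64.1 CPM with KDR and PECAM1 called higher. The epithelial markers were at 27.8 to 28.96 and 31.9 to 39.1 CPM with KRT18 called higher, and the oligodendrocyte markers at 7.48 to 9.81 and 7.85 to 9.39 CPM with MBP called higher and OLIG2 lower. Their part in the results was not tested either.

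The glucocorticoid receptor is a transcription factor that waits in the cytoplasm on chaperones and co-chaperones, moves to the nucleus when it binds hormone, and raises a set of genes that in many tissues includes FKBP5, TSC22D3, PER1, ZBTB16 and SGK1. SGK1 is a serine/threonine kinase whose transcript also answers to serum, mineralocorticoids and changes of cell volume. Its protein is switched on by PDPK1 and mTOR complex 2 and phosphorylates the ubiquitin ligase NEDD4L, which otherwise removes sodium channels and other transporters from the membrane.

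Promoter sequences were taken from RefSeq (GRCh38.p14) as windows of 300 bases around each annotated transcript start, of which the 250 bases before the start are printed. Windows were listed for 6 of the 9 genes, 26 in all, and none for SGK3, TSC22D2 and ZBTB16. The 2 windows shown, 1 for each gene, belong to the member with the largest rise and to the member with the largest fall. That of TSC22D3 was picked after the search for its motif matches and that of SGK1 as the window farthest downstream, and they are written 5′ to 3′ on the minus strand with any matched motif in capitals. The SGK1 window lies at chr6:134174867-134175116 and the TSC22D3 window at chrX:107717063-107717312.
SGK1: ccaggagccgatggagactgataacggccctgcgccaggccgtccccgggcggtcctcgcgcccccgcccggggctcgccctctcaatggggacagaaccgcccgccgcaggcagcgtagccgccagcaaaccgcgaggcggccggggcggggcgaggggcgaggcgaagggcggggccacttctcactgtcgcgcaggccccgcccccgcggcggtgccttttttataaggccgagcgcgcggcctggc
TSC22D3: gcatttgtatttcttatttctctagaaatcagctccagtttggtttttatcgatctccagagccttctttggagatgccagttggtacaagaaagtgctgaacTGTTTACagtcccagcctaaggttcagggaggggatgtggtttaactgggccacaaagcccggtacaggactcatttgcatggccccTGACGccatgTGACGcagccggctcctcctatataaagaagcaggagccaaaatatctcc

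G and C made up 33.6 to 76.0% of the bases before the 3 SGK1 starts and 48.0 to 71.2% before the 4 TSC22D3 starts, and the stretches printed have 76.0% and 48.0%. Among the motifs searched on both strands, the core of the glucocorticoid response element (GNACA, any 3 bases, then its reverse complement) was in 0 of the 26 windows and in 0.390% of all 35116 windows. TGACG, the core of the cAMP response element, was in 7 of the 26 windows and in 24.6% of all windows. It was found in 3 of 4 TSC22D3 windows, 3 of 7 NR3C1 windows, 1 of 5 NEDD4L windows and 0 of 3 SGK1 windows. In the TSC22D3 stretch printed it began 60 and 50 bases before the start, and GTAAACA, a site of FOXO factors that SGK kinases phosphorylate, lay on the other strand from 147 bases before it. GTAAACA was in 3.42% of all windows and in 1 window each of TSC22D3 and NR3C1. These are matches of letters in short windows only.

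SGK1 was the gene with the largest change among the members. It is annotated at chr6:134169246-134318112 on the minus strand (ENSG00000118515, GENCODE 29, GRCh38). Raw counts were 2508, 3020 and 3556 without Sev and 17093, 18334 and 14785 after it. After TMM scaling the control libraries stood at 59.3, 76.2 and 73.3 CPM and the Sev libraries at 454, 488 and 373 CPM. All 3 Sev libraries were above all 3 control libraries, and the spread within each group was small beside the gap, with a coefficient of variation of 13.0% in control and 13.4% in Sev. The mean went from 69.6 ± 9.04 CPM (SD, n = 3) to 438 ± 58.9 CPM (SD, n = 3), a log2 fold change of 2.65 ± 0.14 (SE) and a fold change of 6.30, with 5.72 to 6.94 spanning 1 SE either way.

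**Figure D1:**
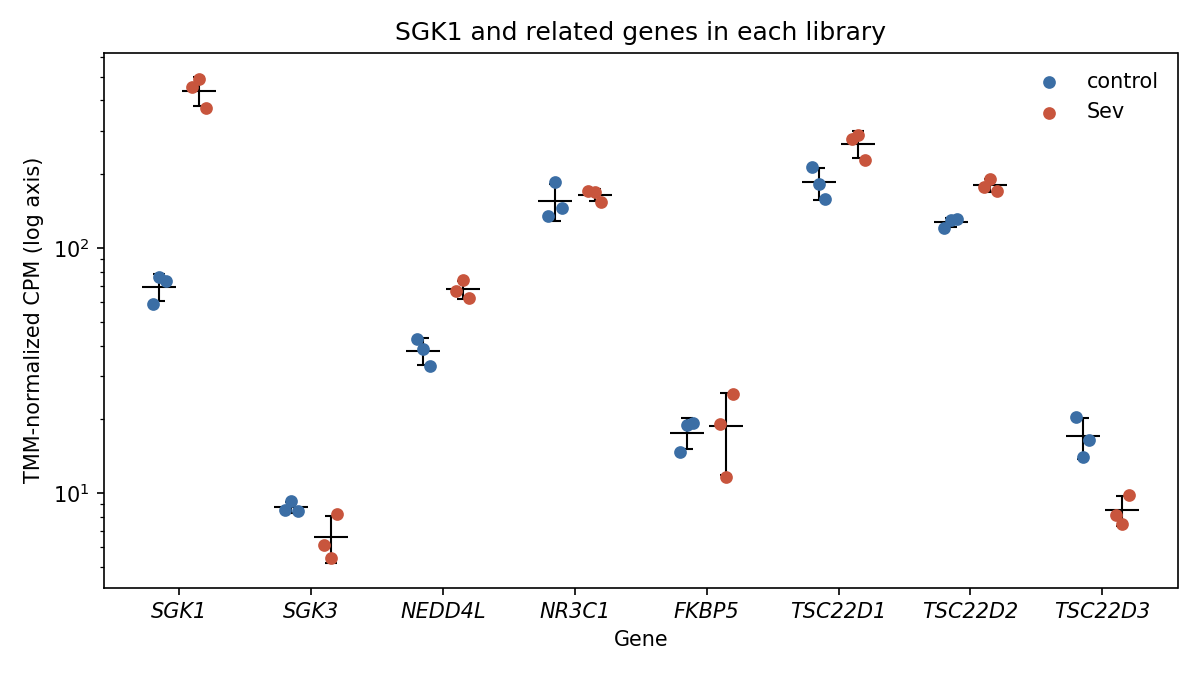
TMM-normalized CPM of the 8 genes with counts in each library, on a log axis, with control in blue and Sev in red, and with bars for the mean and SD of 3 libraries. SGK1 lies at 59.3 to 76.2 CPM in control and 373 to 488 CPM in Sev, while the FKBP5 and NR3C1 libraries of the groups overlap.

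SGK1 was not the most changed feature of the series. Of the 27514 tested features, 860 (3.13%) had a larger log2 fold change, 370 of them among the 15189 protein-coding genes tested. Most of these started from low levels: among the 9716 protein-coding genes with a control mean of at least 10 CPM, a limit chosen after the values were seen, CSRNP1 alone had a larger one. Per length, in the deposited FPKM (fragments scaled by gene length and library size), SGK1 ranked 5149 of 19887 protein-coding genes in control and 697 in Sev. KRT8P42, a processed pseudogene annotated inside SGK1 on the same strand, had 0, 0 and 0 counts in control and 22, 25 and 10 in Sev. Since the libraries are bulk samples, more SGK1 RNA per cell and more cells that express it cannot be told apart.

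**Figure D2:**
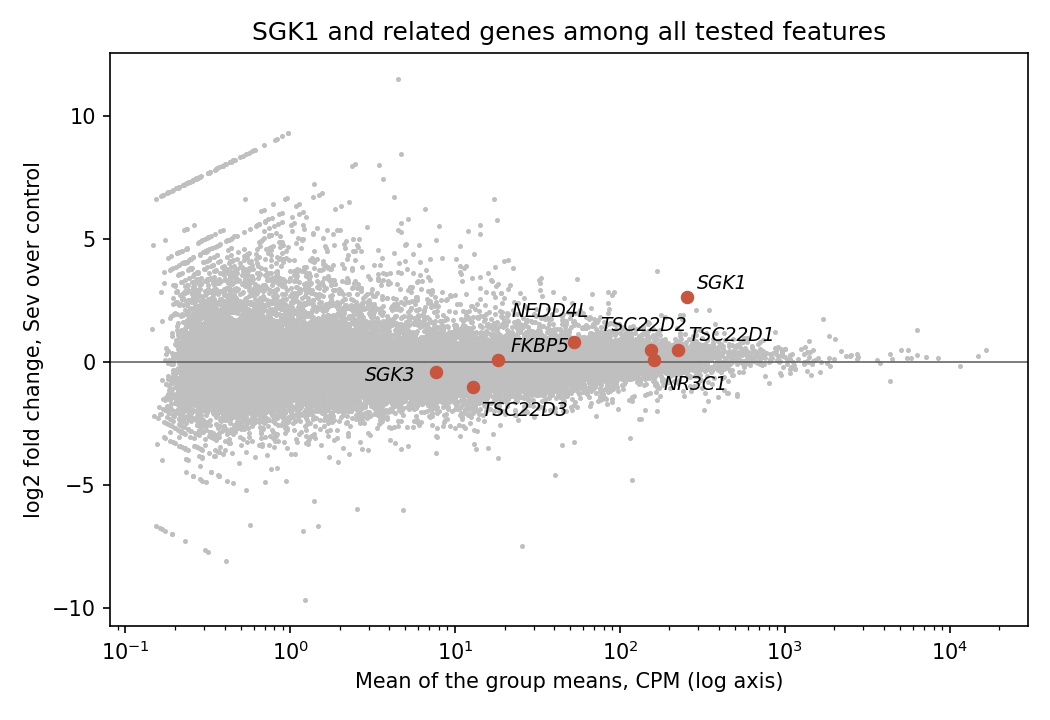
Mean of the group means in CPM (log axis) against the log2 fold change of Sev over control for all 27514 tested features in grey, with the 8 genes in red. SGK1 stands at 2.65 above nearly all features of its level, and the other 7 genes lie between -1.004 and 0.83.

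SGK3, the relative of SGK1 that binds endosomal phosphoinositide lipids, was not called. It is annotated at chr8:66667596-66862022 on the plus strand (ENSG00000104205). Control libraries were at 8.53, 9.26 and 8.49 CPM and Sev libraries at 6.16, 5.46 and 8.23 CPM. Every Sev library was below every control library, Sev 3 by little, and the spread was wider in Sev, with a coefficient of variation of 21.8% against 4.97%. The log2 fold change of -0.40 ± 0.18 (SE) did not pass the test (adjusted p = 0.0973, edgeR), but it did without Sev replicate 3 (-0.59, adjusted p = 0.0213). In FPKM, SGK1 was 5.85, 6.98 and 7.28 times as high as SGK3 in the control libraries and 62.8, 76.7 and 38.7 times in the Sev libraries. This ratio depends on the lengths behind the FPKM: the length implied by counts and FPKM was 1.62 times the GENCODE 29 exon length for SGK3, against 1.24 for SGK1 and a median of 1.24 over 24939 features. C8orf44, a gene that overlaps SGK3 on the same strand, was not analysed here.

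NEDD4L, the ligase that SGK1 phosphorylates, rose. It is annotated at chr18:58044367-58401540 on the plus strand (ENSG00000049759). Levels were 42.5, 38.7 and 33.1 CPM in control and 66.9, 74.1 and 62.6 CPM in Sev, so the groups were apart. The mean rose from 38.1 ± 4.75 to 67.9 ± 5.77 CPM (SD, n = 3), a log2 fold change of 0.83 ± 0.12 (SE) and 1.78-fold (adjusted p = 0.00119, edgeR). The rise passed the test in all 15 alternative analyses, with adjusted p between 2.98e-08 and 0.0136. AC090236.2, an intronic transcript annotated within NEDD4L on the same strand, also rose, by 0.84 (adjusted p = 0.0335, edgeR).

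NR3C1, the glucocorticoid receptor itself, did not differ beyond the spread between libraries. It is annotated at chr5:143277931-143435512 on the minus strand (ENSG00000113580). Control libraries were at 135, 186 and 145 CPM and Sev libraries at 171, 170 and 153 CPM. All 3 Sev values fell inside the control range. The log2 fold change was 0.083 ± 0.126 (SE) with an adjusted p of 0.623 by edgeR, and its sign turned to -0.057 when libraries were scaled by their size alone. The spread was larger in control, with a coefficient of variation of 17.4% against 5.96%.

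FKBP5, the immunophilin that sits on the receptor complex and lowers its affinity for hormone, varied most between Sev libraries. It is annotated at chr6:35573585-35728583 on the minus strand (ENSG00000096060). Control libraries stood at 14.7, 18.9 and 19.3 CPM and Sev libraries at 19.1, 11.6 and 25.4 CPM. Sev 2 was the lowest and Sev 3 the highest of all 6 libraries, and the coefficient of variation was 36.8% in Sev against 14.5% in control. The log2 fold change was 0.084 ± 0.26 (SE, adjusted p = 0.819, edgeR), and it became -0.20 without Sev replicate 3 and -0.043 by library size alone. Sev 3 held the highest of the 3 Sev values for FKBP5, SGK3 and TSC22D3 and the lowest for SGK1, NEDD4L, NR3C1, TSC22D1 and TSC22D2.

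ZBTB16, the zinc finger repressor PLZF that glucocorticoids raise in several tissues (chr11:114059593-114250676, plus strand, ENSG00000109906), had 0 counts in all 6 libraries. That count allows a level of up to 0.0122 CPM over the summed libraries, from 3 counts and with counting error alone, so neither a level nor a change was detectable at this depth.

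The TSC22 family encodes leucine zipper proteins, and its members went in both directions. TSC22D3, also named GILZ for glucocorticoid-induced leucine zipper, is annotated at chrX:107713221-107777342 on the minus strand (ENSG00000157514). Levels were 20.5, 14.1 and 16.5 CPM in control and 8.18, 7.51 and 9.82 CPM in Sev. No Sev library reached the lowest control library, and the mean fell from 17.1 ± 3.25 to 8.50 ± 1.19 CPM (SD, n = 3). Its log2 fold change was -1.004 ± 0.18 (SE), or 2.01-fold lower (adjusted p = 0.00308, edgeR). It passed the test in all 15 alternatives with values from -1.14 to -0.77, so that it lay at the edge of the study's threshold of 1 on the log2 scale.

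TSC22D1, which is best known as a target of transforming growth factor beta, is annotated at chr13:44432143-44577147 on the minus strand (ENSG00000102804). Control libraries were at 214, 183 and 158 CPM and Sev libraries at 280, 290 and 228 CPM. The groups were apart, though Sev 3 exceeded control 1 by little. The mean rose from 185 ± 27.7 to 266 ± 33.1 CPM (SD, n = 3), a log2 fold change of 0.52 ± 0.13 (SE, adjusted p = 0.0155, edgeR). The call was lost without control replicate 3 (adjusted p = 0.0578) and without Sev replicate 1 (adjusted p = 0.0529), and also when FPKM were tested with limma (0.36 to 0.38, adjusted p up to 0.0981). TSC22D1-AS1, an antisense gene that overlaps it, rose by 1.57 (adjusted p = 0.000481) and the overlapping pseudogene AL139184.1 by 0.76 (adjusted p = 0.0269, both edgeR). Whether the counting used strand is not given in the sources used here, so the share of these reads that belongs to TSC22D1 was not tested.

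TSC22D2, at chr3:150408335-150466431 on the plus strand (ENSG00000196428), varied little between libraries. It was at 121, 130 and 131 CPM in control and at 178, 192 and 170 CPM in Sev. The mean rose from 127 ± 5.68 to 180 ± 11.1 CPM (SD, n = 3) with a log2 fold change of 0.50 ± 0.080 (SE, adjusted p = 0.00208, edgeR), and no alternative removed the call.

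SGK1 was left out of the counts over the members, since its change was the reason for the choice. Of the 7 other genes tested, 3 were called higher (NEDD4L, TSC22D1 and TSC22D2), 1 was called lower (TSC22D3) and 3 were not called, where 43.7% of all tested features and 45.9% of protein-coding genes were called in either direction. The groups did not overlap for 5 of the 7, beside 56.5% of all features. TSC22D3 alone of the 7 passed the study's threshold, a log2 fold change beyond 1 either way with an unadjusted p under 0.05, which 23.5% of all features passed. The median log2 fold change of the 7 was 0.084, beside -0.0056 over all features and 0.038 over protein-coding genes, and it turned to -0.043 by library size alone. Without Sev replicate 3 there were 2 called lower, TSC22D3 and SGK3. With so few genes these shares are a description.

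**Figure D3:**
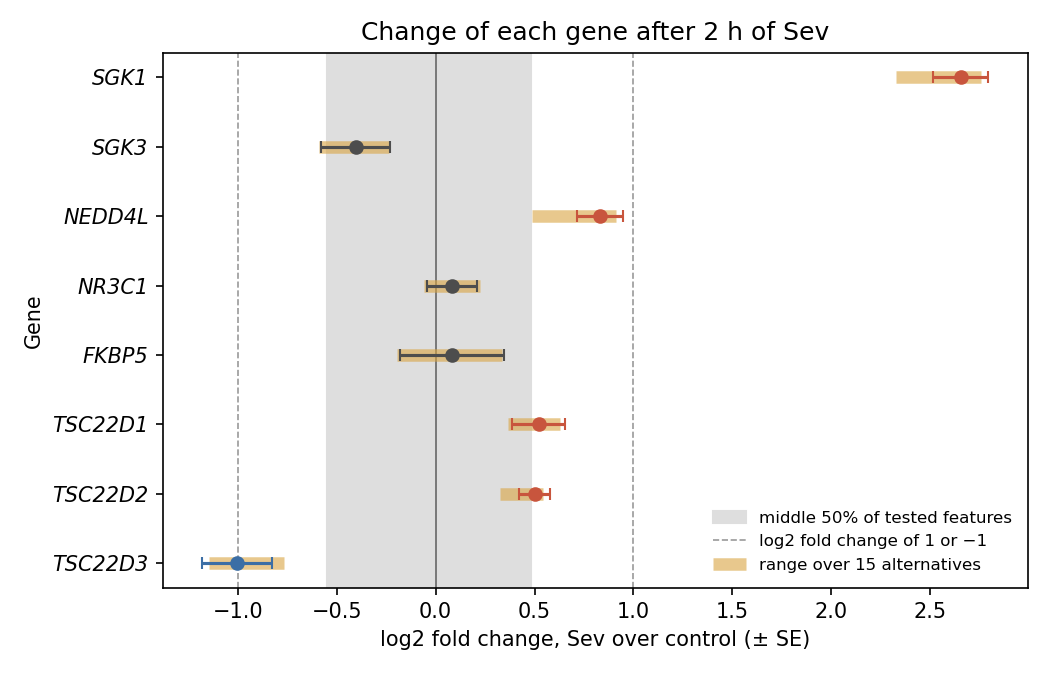
Log2 fold change of Sev over control with its SE for the 8 genes, called higher in red, called lower in blue and not called in grey, with the range over 15 alternative analyses as a thick yellow bar. The grey band holds the middle 50% of all tested features (-0.55 to 0.48). SGK1 at 2.65 and TSC22D3 at -1.004 lie farthest out, and the bars of NR3C1 and FKBP5 cross 0.

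Levels between genes were compared per length, in the deposited FPKM. In control cells the order of the means was TSC22D1 (18.3 FPKM), NR3C1 (14.4), TSC22D2 (9.26), SGK1 (5.90), TSC22D3 (3.04), NEDD4L (1.83), FKBP5 (1.41) and SGK3 (0.880). TSC22D1 and NR3C1 overlapped between libraries, and the other neighbours in this order did not. After Sev the order became SGK1 (33.7 FPKM), TSC22D1 (23.7), NR3C1 (13.8), TSC22D2 (11.8), NEDD4L (2.96), FKBP5 (1.36), TSC22D3 (1.36) and SGK3 (0.60), and only FKBP5 and TSC22D3 overlapped as neighbours. SGK1 thus had rank 4 in control cells and rank 1 after Sev, and TSC22D3 went from above NEDD4L to below it.

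**Figure D4:**
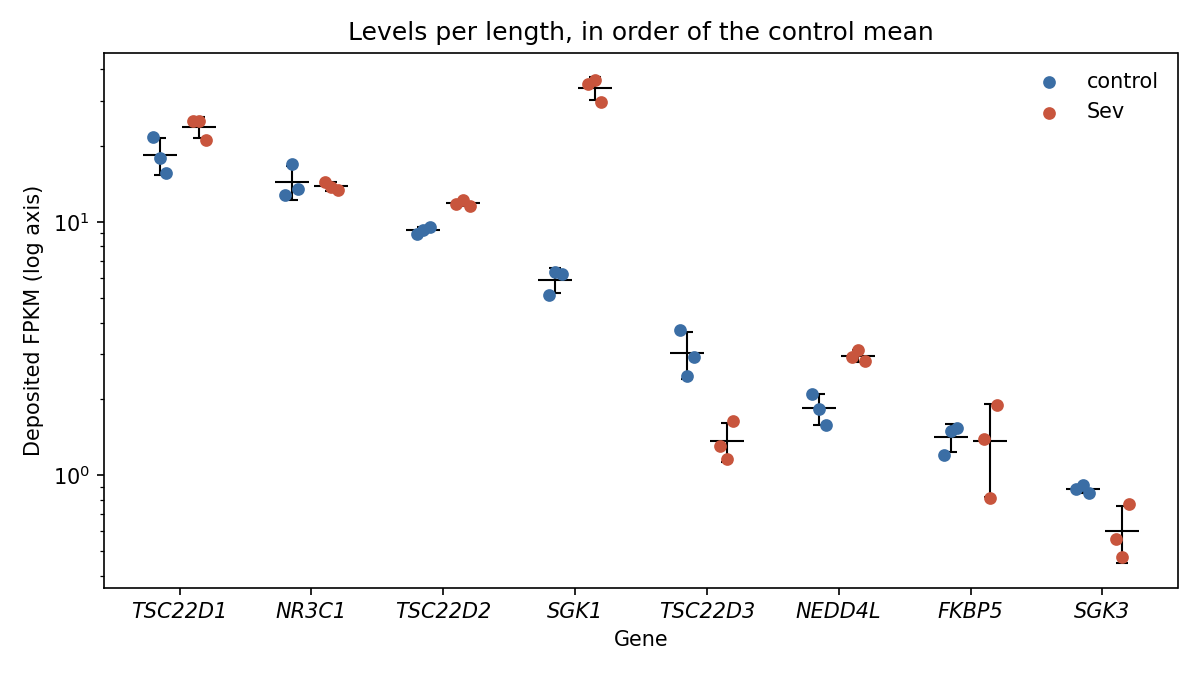
Deposited FPKM of the 8 genes in each library on a log axis, ordered by the control mean, with control in blue, Sev in red and bars for the mean and SD of 3 libraries. SGK1 goes from 5.90 to 33.7 FPKM, above TSC22D1 at 23.7, and SGK3 is the lowest in both groups.

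Among 13404 protein-coding genes with a mean of at least 1 CPM, the 5 whose profile over the 6 libraries was nearest to that of SGK1 were CSRNP1, FOSL1, SH2D5, SPTBN5 and ADAP1, with root mean square differences of centred log2 CPM of 0.140, 0.144, 0.145, 0.152 and 0.153. CSRNP1, an immediate early nuclear protein, was at 18.7, 22.5 and 20.4 CPM in control and 143, 186 and 115 CPM in Sev. FOSL1, a subunit of the transcription factor AP-1, was at 13.5, 19.1 and 16.3 CPM and then at 83.4, 97.0 and 78.8 CPM. Both were highest in Sev 2 and lowest in Sev 3 among the Sev libraries, as SGK1 was, but they were picked on these same libraries. NEDD4L, TSC22D1 and TSC22D2 were also highest in Sev 2 and lowest in Sev 3. With 6 libraries in 2 groups, this likeness rests mostly on the size of the change.

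Wider lists of genes that work with the members were described by the same test. For comparison by direction, 22.1% of all features were called higher and 21.5% lower, and 45.9% of protein-coding genes were called either way. Of 50 genes known as targets of the glucocorticoid receptor, 44 were tested, 16 were called higher and 6 lower, which is 50% called beside 43.7% of all features, with a median log2 fold change of 0.34. The genes called lower were 2 without control replicate 1 or 3, and 3 without Sev replicate 1 or 3 or with the replicate number as a block. The median was 0.18 without Sev replicate 2, 0.20 by library size alone and 0.062 with limma on unfiltered FPKM. GADD45A, a stress gene that slows the cell cycle, rose from 28.5 ± 3.54 to 103 ± 14.6 CPM (SD, n = 3), a log2 fold change of 1.85, and the log2 fold changes of further list genes stand in parentheses. CRISPLD2, a secreted protein, rose from 0.945 ± 0.206 to 11.2 ± 4.40 CPM (3.57), and DUSP4, a phosphatase of MAP kinases, from 74.7 ± 9.52 to 225 ± 60.9 CPM (1.59). PER1, a clock gene and a common readout of the receptor, rose from 81.6 to 157 CPM (0.94), and IRS2, EDN1 and SNAI2 rose by 1.18, 2.40 and 1.01 on the log2 scale. PER1 was named after its values were seen, as were DUSP1 and KLF9, 2 other common readouts, which were not called (0.075 and 0.25).

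The 6 targets that fell were PDK4, GPX3, MERTK, CEBPD, FAM107A and PCK1, with control means from 1.01 CPM for PCK1 to 6.40 CPM for CEBPD. PDK4, a kinase that holds back pyruvate oxidation, fell from 1.86 ± 0.454 to 0.720 ± 0.371 CPM (-1.37), a call lost without control replicate 1 or 3 (adjusted p = 0.0802 and 0.0952, edgeR). GPX3 fell by 0.58 and MERTK by 0.73 on the log2 scale, and the call of GPX3 was lost when control 3, Sev 1 or Sev 3 was left out (adjusted p up to 0.0798, edgeR) and that of MERTK when control 1, control 3, Sev 1 or Sev 3 was (adjusted p up to 0.120, edgeR). CEBPD, named after its values were seen, fell by 0.63, a call kept only without control 2 (adjusted p up to 0.124 otherwise), and FAM107A by 1.62 on the log2 scale, a call lost without control 1 or 2 (adjusted p = 0.0602 and 0.0627, all edgeR). PCK1, an enzyme of glucose synthesis, had 56, 25 and 52 counts in control and 9, 0 and 5 in Sev.

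Of the receptor's chaperones, coregulators and steroid enzymes, 35 of 36 were tested, 10 were called higher and 5 lower (42.9% called beside 43.7% of all features, median 0.14). DNAJB1, a co-chaperone of HSP70, rose from 173 ± 2.52 to 437 ± 36.4 CPM (1.34). NRIP1 and EP300, a corepressor and a histone acetyltransferase, rose by 0.84 and 0.61. H6PD, which supplies the reducing power for cortisol regeneration, fell from 118 ± 10.5 to 68.0 ± 1.74 CPM (-0.79), and the nuclear import receptor IPO13 and the cyclophilin PPID by 0.71 and 0.57 on the log2 scale. The steroid enzyme HSD11B1 did not pass the filter. Scaled by library size alone, 6 were higher and 6 lower with a median of 0.0019.

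Of the kinases, phosphatases and ligases upstream of SGK1, 31 of 33 were tested, 6 were called higher and 4 lower (32.3% called beside 43.7% of all features, median 0.066), with 4 higher and 7 lower by library size alone and 8 higher and 3 lower by DESeq2's size factors. The median turned to -0.066 by library size alone and lay between -0.085 and -0.045 with limma on FPKM, so the list has no direction that holds. It was 0.0090 without control replicate 1 and 0.10, 0.11 and 0.13 without control 2, Sev 1 and Sev 3. RICTOR, the defining subunit of mTOR complex 2, rose from 90.2 ± 4.94 to 137 ± 13.5 CPM (0.61), as did the phosphatase subunit PPP2CA (0.63) and UBE2J1 (0.62), a ubiquitin-conjugating enzyme of protein degradation at the endoplasmic reticulum. MAP2K5, a kinase of the MAP kinase cascades, fell from 22.9 ± 0.203 to 14.1 ± 0.555 CPM (-0.70), and the deacetylase HDAC6 by 0.59 on the log2 scale.

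Of the substrates and transporters regulated by SGK kinases, 38 of 44 were tested, 13 were called higher and 2 lower (39.5% called beside 43.7% of all features, median 0.19), with 8 higher, 3 lower and a median of 0.044 by library size alone. The genes called higher were 8 without control replicate 3 or Sev replicate 1, those called lower were 5 without Sev replicate 2, and the median was between 0.013 and 0.094 with limma on FPKM. NEDD4, the close relative of NEDD4L, rose from 96.2 ± 10.6 to 168 ± 15.9 CPM (0.81). EZR, a linker of membrane and actin, rose from 399 ± 51.1 to 713 ± 11.8 CPM (0.84) and ATP1B1, a subunit of the sodium pump, from 71.4 ± 1.05 to 162 ± 51.3 CPM (1.18). IKBKB and CREB1 fell by 0.90 and 0.91 on the log2 scale. The epithelial sodium channel subunits SCNN1B and SCNN1G, whose removal NEDD4L is known for, did not pass the filter.

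The response to osmotic stress, another setting in which SGK1 is raised, had 29 of 31 genes tested with 12 called higher and 5 lower (58.6% called beside 43.7% of all features, median 0.32). AQP3, a water and glycerol channel, rose from 1.15 ± 0.0485 to 3.51 ± 0.711 CPM (1.61), LRRC8A, the core of the volume-regulated anion channel, from 84.7 ± 5.65 to 147 ± 22.2 CPM (0.80), and the kinase MAP3K5 by 0.51. SLC6A12, the betaine transporter, had 3, 12 and 4 counts in control and 43, 44 and 50 in Sev, and TRPV4, a cation channel, had 2, 0 and 2 and then 23, 26 and 30. WNK3, HSPA4L and HSPH1 fell by 0.94, 0.67 and 0.48 on the log2 scale. NFAT5, the transcription factor of the osmotic response, was named after its values were seen and was not called (0.32, adjusted p = 0.118, edgeR), but it was without Sev replicate 3 (0.45, adjusted p = 0.028). With FPKM tested by limma the calls were 5 higher and 5 lower in both filtered fits, with medians of -0.019 and -0.0011, and 7 higher and 5 lower without the filter. The median was 0.14 without Sev replicate 2 and 0.17 by library size alone, and the genes called lower were 3 when control 1, Sev 1 or Sev 3 was left out.

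All 16 genes that work with TSC22 proteins were tested, 7 were called higher and 2 lower (56.3% called beside 43.7% of all features, median 0.33), and by library size alone 4 were higher and 2 lower with a median of 0.18. The median was 0.17 without Sev replicate 2 and 0.16 with limma on log2(FPKM + 1). TGFBR2, a receptor of transforming growth factor beta, rose from 136 ± 4.81 to 241 ± 40.8 CPM (0.83) and NRBP1, a pseudokinase that binds TSC22 proteins, from 91.3 ± 5.01 to 127 ± 4.12 CPM (0.48). FOS, a subunit of AP-1, fell from 564 ± 38.1 to 400 ± 49.2 CPM (-0.50) and NRBP2 by 0.52 on the log2 scale.

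**Figure D5:**
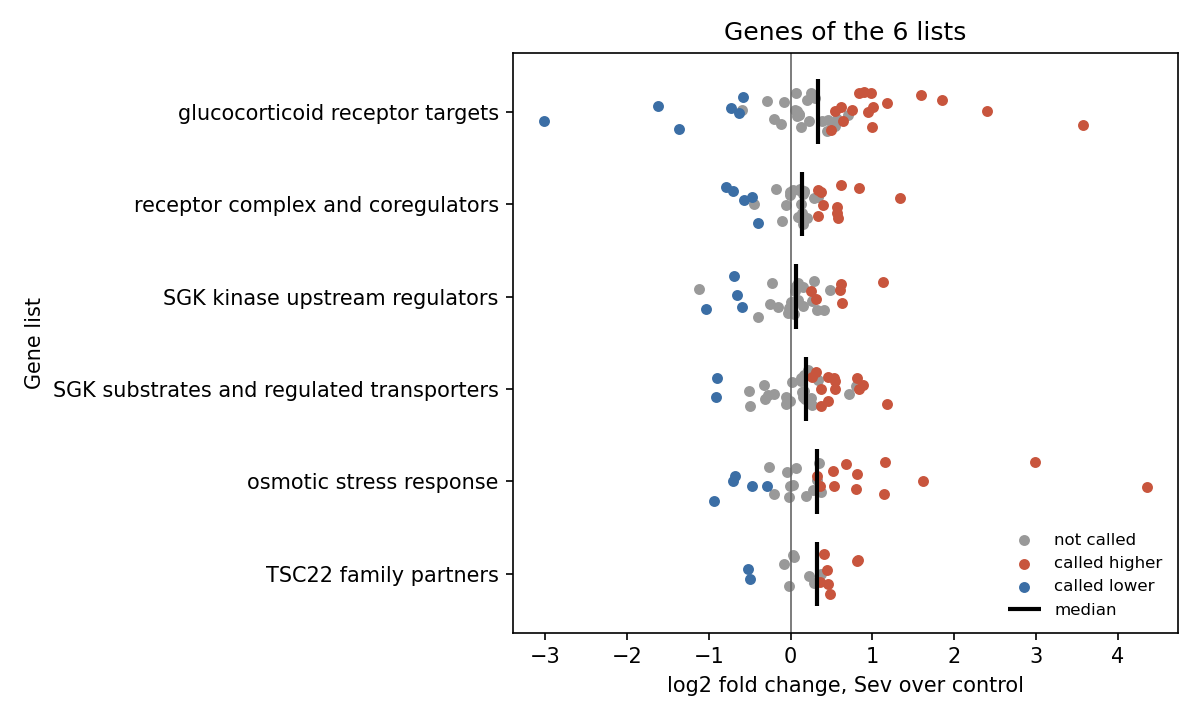
Log2 fold change of Sev over control for each tested gene of the 6 lists, called higher in red, called lower in blue and not called in grey, with a black line at the median of each list. As fitted to TMM-scaled counts, the medians lie between 0.066 for the regulators upstream of SGK1 and 0.34 for the glucocorticoid receptor targets, and each list holds genes called in both directions.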

How the data were processed

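The submitters' processing notes name bcl2fastq 2.19, featureCounts and the genome build hg18, and the role and settings of each are not given in the sources used here. The authors deposited raw counts per gene and FPKM values for the same 61496 features in 6 libraries. Positions come from GENCODE 29 (GRCh38), joined by Ensembl identifier, and may differ from the build the authors used. The members and the gene lists were chosen with earlier results of these data known.

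Features were kept by filterByExpr, scaled by TMM and fitted with the quasi-likelihood functions glmQLFit and glmQLFTest (edgeR 4.0.16, R 4.3.3) on the 2 groups alone. Benjamini-Hochberg adjustment ran over all 27514 tested features. Each SE was obtained from the fold change on the log2 scale and the F statistic, and CPM hold no prior count. Levels between genes were compared in FPKM. Tests on simulated data preceded the fit. The labels do not say whether replicate numbers pair the libraries, and the main fit used no pairing. The libraries of a group differed beyond sampling noise in 50.5 to 68.0% of 13668 genes with at least 100 counts. An exact permutation test of 3 against 3 libraries cannot go under 0.1.

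Named genes were all 9 members, the 3 called genes of each list and direction with the smallest p-value at a mean of at least 1 CPM, list genes past the study's threshold, and the 5 genes nearest to SGK1. The results of some genes under this rule are not reported here. Centred log2 CPM for this likeness had a prior count of 2. The 15 alternatives were size factors in place of TMM, no TMM, DESeq2 1.42.0 (Wald test), no filter, at least 10 counts in every library, a replicate block, each library left out, and limma 3.58.1 on FPKM in log2 form with a pseudocount of 1 or 0.1, kept at an FPKM of 0.5 or more in 3 libraries, and with a pseudocount of 1 also unfiltered. A pseudocount draws the fold changes of low genes towards 0, and FPKM also differ from TMM in the scaling of libraries.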

Additional observations from a re-analysis of the deposited data

How the results depend on the processing

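SGK1 stayed between 2.33 and 2.76 over the 15 alternatives, the lowest value, 2.33, on log2(FPKM + 1) with and without the filter. NEDD4L, TSC22D2 and TSC22D3 kept their direction and call under each of the 15. The sign of NR3C1 turned to -0.057 with library size only, to -0.047 on log2(FPKM + 1) with and without the filter and to -0.049 on log2(FPKM + 0.1), and ranged from -0.019 (without control replicate 1) to 0.23 with a library left out. FKBP5 turned to -0.043, -0.051 with and without the filter, and -0.11 in the same order, and ranged from -0.20 to 0.34 with a library left out. The median of all features moved by -0.14 with library size only, and by -0.11 and -0.16 on the filtered FPKM scales. The causes were not tested beyond this shift. Members called lower ranged from 1 to 2 with a library left out, the larger number, 2, without Sev replicate 3. The limma fit of log2(FPKM + 1) without a filter called 7 SGK substrates and transporters in place of 15, both filtered FPKM fits called 10 osmotic genes in place of 17, and they called 3676 and 3623 of all features higher in place of 6094. With limma on log2(FPKM + 1) the calls of all features split into 3676 higher and 6709 lower, those of the receptor complex into 7 and 6, of the upstream regulators into 3 and 6, of the substrates into 7 and 3 and of the TSC22 partners into 4 and 2. Correlations of deviations between libraries of the same number were -0.0072, 0.0035 and 0.027, and those of other pairs ran from -0.038 to 0.032. Such correlations cannot tell whether libraries of the same number shared a culture or a day. With the replicate number as a block NEDD4L, TSC22D1 and TSC22D2 were called higher and TSC22D3 lower, as with no block. SGK1 then stood at 2.65, and of all features 5228 were called higher and 5021 lower. Under the block GPX3 (-0.58) and MERTK (-0.70) were no longer called. MERTK also lost its call with no filter (adjusted p = 0.0560, edgeR) and on unfiltered log2(FPKM + 1) (adjusted p = 0.0993, limma). CPM per kilobase used the lengths implied by the FPKM, so it changes only the scaling between libraries and does not test the lengths behind the order, and under it FKBP5 and TSC22D3 changed places after Sev. SGK3, FKBP5 and TSC22D3 had the fewest counts of the tested members, and precision rests on 3 libraries a group.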
